A study of Mus musculus with 56 samples.

Results

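The genes described here are 6 matrix metalloproteinases (Mmp2, Mmp3, Mmp7, Mmp9, Mmp14 and Mmp23) and the 4 tissue inhibitors of metalloproteinases (Timp1, Timp2, Timp3 and Timp4). These 10 genes were taken by symbol from the 53379 Ensembl genes of the count table, by name and not by a threshold on any measured value. Their levels were followed over 7 regions of the male mouse reproductive tract at 2 ages. In GRCm38, Mmp3 (chr9:7445822-7455975) and Mmp7 (chr9:7692090-7699585) lie on the same chromosome, as part of a metalloproteinase cluster. Mmp2 (chr8:92827291-92853420), Mmp9 (chr2:164940780-164955850), Mmp14 (chr14:54431612-54445364) and Mmp23 (chr4:155650655-155653384) lie on 4 others. Timp1 (chrX:20870166-20874735), Timp2 (chr11:118301069-118355740), Timp3 (chr10:86300372-86349506) and Timp4 (chr6:115241892-115252205) are also on separate chromosomes, and all 10 are protein-coding.

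Matrix metalloproteinases are zinc-dependent enzymes that are made as inactive proenzymes and cut collagen, elastin, laminin and other proteins around the cell once they have been activated. Each TIMP binds the active site of these enzymes and blocks it, so that the balance of enzyme and inhibitor sets the rate of matrix turnover. In the reproductive tract the matrix surrounds the seminiferous tubules of the testis, the long coiled duct of the epididymis in which sperm mature, and the muscular wall of the vas deferens.

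Total RNA was sequenced from male C57BL/6 mice that received no treatment, 4 of them 3 months old and 4 of them 21 months old. Testis, efferent ductules, vas deferens and the parts of the epididymis (initial segment, caput, corpus, cauda) were taken from each animal, both sides together, which gave 56 libraries and 4 for each region at each age. All groups shared strain and sex, and the replicate numbers were not tied to animals in the labels, so p-values measure the spread between these libraries. The samples were whole regions that contain epithelium, muscle, stroma, vessels and, in the testis and ducts, germ cells or sperm.

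Total counts ranged from 11125279 to 20561967 per library (median 16384049), and 1 gene, Gm42418, took between 1.27% and 49.7% of them. Markers set the regions apart to different degrees. The summed level of 8 germ cell genes lay between 7756 and 9424 CPM, the counts scaled to a common library size, in the testis and did not exceed 573.5 elsewhere, and that of the 2 vas deferens genes Akr1b7 and Krt15 lay between 10320 and 22580 in the vas deferens and did not exceed 143.8 elsewhere. The 6 epididymal epithelium markers summed to 9393 CPM or more in every epididymal library but also to between 4514 and 8400 in the vas deferens, and the 5 efferent ductule markers to between 3023 and 3881 in the efferent ductules but also to as much as 2138 in the cauda. Several libraries stood apart from their groups. Replicate 3 of the cauda at 3 months held a macrophage marker sum of 1362 CPM against 280.7 to 297.5 in its group, and replicates 2 and 3 of the efferent ductules at 21 months held epididymal epithelium markers at 1292 and 538.1 CPM, where the other libraries of that group held at most 9.74. Replicate 4 of the vas deferens at 21 months had the lowest sum of vas deferens genes (10320 CPM) and the highest T cell sum (43.77 CPM), and replicate 2 of the caput at 3 months was the library with 49.7% Gm42418. Member results that rest on these libraries, and calls of other named genes that they change, are given with and without them.

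Promoter sequences are shown for 4 members with contrasting distributions: Mmp7, which varied most between regions, Mmp3, which was nearly restricted to the cauda and vas deferens, and Mmp14 and Timp2, which varied least. Each is the RefSeq window of GRCm38.p6 that runs from 250 bases before to 50 bases after the transcription start, printed 5′ to 3′ on the gene's strand. Capitals mark the AP-1 motif TGANTCA, the TATA motif TATAAA and the GC box GGGCGG, each sought on both strands.
Mmp7 (chr9:7691840-7692139, plus strand): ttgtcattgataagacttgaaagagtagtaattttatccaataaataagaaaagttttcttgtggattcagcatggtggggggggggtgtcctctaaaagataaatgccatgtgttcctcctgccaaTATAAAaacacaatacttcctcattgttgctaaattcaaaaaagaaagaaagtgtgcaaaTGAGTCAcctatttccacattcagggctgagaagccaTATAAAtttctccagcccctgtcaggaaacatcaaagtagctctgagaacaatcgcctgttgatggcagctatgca
Mmp3 (chr9:7445572-7445871, plus strand): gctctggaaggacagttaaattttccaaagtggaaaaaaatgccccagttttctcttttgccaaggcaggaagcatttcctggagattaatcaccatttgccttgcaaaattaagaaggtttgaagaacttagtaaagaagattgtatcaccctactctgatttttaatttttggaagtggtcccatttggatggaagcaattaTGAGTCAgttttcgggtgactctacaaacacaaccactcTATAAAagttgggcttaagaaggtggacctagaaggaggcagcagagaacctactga
Mmp14 (chr14:54431348-54431647, plus strand): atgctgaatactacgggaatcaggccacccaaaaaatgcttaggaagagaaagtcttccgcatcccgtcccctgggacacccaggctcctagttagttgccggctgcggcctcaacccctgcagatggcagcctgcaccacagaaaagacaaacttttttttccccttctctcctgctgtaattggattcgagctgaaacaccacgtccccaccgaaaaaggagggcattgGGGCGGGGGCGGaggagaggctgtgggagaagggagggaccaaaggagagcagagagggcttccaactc
Timp2 (chr11:118355362-118355661, minus strand): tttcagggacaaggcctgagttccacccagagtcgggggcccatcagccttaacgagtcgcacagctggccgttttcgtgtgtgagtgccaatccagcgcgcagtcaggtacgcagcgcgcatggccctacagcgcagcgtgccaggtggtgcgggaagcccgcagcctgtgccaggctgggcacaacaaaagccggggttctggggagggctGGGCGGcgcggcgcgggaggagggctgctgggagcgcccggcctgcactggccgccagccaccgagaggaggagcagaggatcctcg
Mmp7 and Mmp3 each held TGAGTCA, at 63 and 46 bases before the start, and both held TATAAA. Neither held GGGCGG, which Mmp14 held as 2 copies and Timp2 as 1. Among the 8 members with a promoter in the table, Mmp3 and Mmp7 were the ones with TGANTCA, a motif found in 7.81% of all 32851 promoters, and also the ones with TATAAA, found in 13.6%. The GC box, found in 35.7% of promoters, was held by Mmp14, Timp1, Timp2 and Timp3. These are matches of letters and do not show that a factor was bound.

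Mmp7, matrilysin, a small metalloproteinase made by epithelial cells, had the widest regional range. At 3 months its 4 libraries gave 438.5, 418.1, 465.9 and 521.5 CPM in the efferent ductules and 216.3, 235.0, 72.24 and 192.2 CPM in the cauda. The initial segment followed at 52.69 CPM ± 5.59 (SD, n = 4), then the caput at 8.07 ± 0.973, the corpus at 3.85 ± 0.926 and the vas deferens at 1.82 ± 1.10. In the testis it had no count in any of the 8 libraries, which allows up to 0.0421 CPM over the 4 young libraries (3 counts for the group), so the efferent ductules were at least 10940-fold higher. Along the duct the level was thus high in the efferent ductules, low in the corpus, high again in the cauda and low in the vas deferens. Every neighbouring pair in this order differed in edgeR's quasi-likelihood test (largest adjusted p = 0.0112), and all 21 pairs of regions did. At 21 months the order had changed in 1 place, with the vas deferens (28.1 CPM ± 14.6) above the caput (11.3 ± 1.88) and corpus (5.41 ± 1.11), and the efferent ductules and cauda were not separated (log2 -0.47 for cauda against efferent ductules, adjusted p = 0.174). Without replicates 2 and 3 of the old efferent ductules they were (-0.82, adjusted p = 0.0375).

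The gelatinases Mmp2 and Mmp9, which digest denatured collagen and type IV collagen of basement membranes, were both high in the vas deferens. At 3 months Mmp2 was at 50.24, 56.03, 54.17 and 51.55 CPM there, at 39.27 ± 4.68 in the efferent ductules, between 9.23 and 10.63 on average in the initial segment, caput and corpus, and at 0.920 ± 0.403 in the testis. The cauda gave 21.74, 21.73, 105.1 and 19.45 CPM, so that its mean of 42.01 was set by replicate 3. Vas deferens, cauda and efferent ductules were not separated by the test, nor were initial segment, caput and corpus, and the lowest of the first set exceeded the highest of the second (adjusted p = 0.000131). Without cauda replicate 3 the cauda lay between the sets, with the efferent ductules above it (log2 difference -0.95, adjusted p = 5.86e-05) and the initial segment below it (0.89, adjusted p = 0.000243), and the vas deferens exceeded the efferent ductules (0.56, adjusted p = 0.00488). Mmp9 was at 30.25, 25.95, 30.13 and 25.02 CPM in the vas deferens, 2.95 times the level of the next region, the corpus (9.43 ± 1.01, adjusted p = 2.89e-09). Corpus, cauda and efferent ductules were not separated from each other, and caput, initial segment and testis followed at 4.72, 2.47 and 0.415 CPM, each lower than the one before. The order of Mmp9 at 21 months again had the vas deferens first (43.69 ± 14.7) and the testis last, with the efferent ductules now second (14.65 ± 2.58, above the corpus, adjusted p = 0.0135, and 0.179 without replicates 2 and 3).

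Mmp3, stromelysin 1, which cuts proteoglycans, laminin and fibronectin and activates other metalloproteinases, was scarce. It exceeded 1 CPM in single libraries of the cauda and vas deferens and in no other region. At 3 months the vas deferens gave 1.481, 2.376, 1.435 and 0.8761 CPM and the cauda 1.293, 0.5718, 3.713 and 0.7653 CPM, the third from the library with high macrophage markers. These 2 regions were not separated, and the vas deferens exceeded the efferent ductules, next in order at 0.119 CPM (adjusted p = 2.62e-05). In the testis 1 count was found in 8 libraries. The 5 regions below the vas deferens were not separated from their neighbours.

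The membrane-bound enzymes are Mmp14 and Mmp23. Mmp14, the membrane-type metalloproteinase that activates proMMP2 at the cell surface, was present in every library and highest in the efferent ductules (106.9 CPM ± 6.65), the initial segment (103.6 ± 3.01) and the caput (98.46 ± 15.6), which were not separated at 3 months. Vas deferens (54.82 ± 1.83) and corpus (53.82 ± 7.03) lay lower, and the testis (21.82 ± 0.983) below both. The cauda gave 60.1, 60.92, 171.1 and 59.95 CPM, with replicate 3 again far from the rest, and its difference from the vas deferens (adjusted p = 0.0404) rested on that library (adjusted p = 0.89 without it) and was also lost without caput replicate 2 (0.0874). Without cauda replicate 3 the cauda was also below the efferent ductules, initial segment and caput (largest adjusted p = 5.43e-09). Mmp23, a membrane-anchored member that is released by cleavage, was highest in the efferent ductules (17.36 ± 2.69) and cauda (15.79 ± 6.10), which were not separated (adjusted p = 0.681). Cauda replicate 3 gave 24.82 CPM against 11.75 to 14.16 in the others. The corpus (10.55 ± 3.62) was not separated from the cauda or the vas deferens (8.36 ± 0.651, adjusted p = 0.135 and 0.456). Mmp23 was near 2.9 CPM in the caput and initial segment, and at 0.364 ± 0.189 in the testis.

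Among the inhibitors, Timp2, which inhibits metalloproteinases and also joins MMP14 in the activation of proMMP2, was the gene with the smallest regional range. At 3 months the mean levels ran from 305.2 CPM ± 15.7 in the vas deferens and 300.8 ± 1.31 in the efferent ductules through 258.7 in the cauda, 199.3 in the corpus, 138.2 in the testis and 102.7 in the caput to 93.76 ± 4.26 in the initial segment, a span of 3.26 times. The efferent ductules were not separated from the vas deferens or the cauda, though these 2 differed (adjusted p = 0.0114), nor was the caput from the testis or the initial segment. Without cauda replicate 3 the efferent ductules exceeded the cauda (log2 difference -0.41 for cauda against efferent ductules, adjusted p = 0.00109) and the testis exceeded the caput (adjusted p = 0.0167). Without caput replicate 2 these 2 differences passed as well (adjusted p = 0.0483 and 0.0299). Without cauda replicate 3 the cauda and corpus were no longer separated (adjusted p = 0.334). Timp3, the matrix-bound inhibitor that also blocks ADAM and ADAMTS proteases, stood at 490.9, 495.2, 463.9 and 531.0 CPM in the efferent ductules, above every library of every other region at that age. Next came the vas deferens at 276.7 ± 15.1 (adjusted p = 3.05e-07 against the efferent ductules) and the cauda at 174.0 ± 11.2, and the testis was lowest at 45.46 ± 2.55.

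Timp1, a secreted inhibitor known to be induced in inflamed tissue, was low throughout. Its mean at 3 months was between 2.18 and 2.93 CPM in the efferent ductules and the 4 epididymal regions, which were not separated, and 0.710 ± 0.287 in the vas deferens and 0.393 ± 0.209 in the testis. Timp4 had another distribution from the rest, with 8.118, 8.651, 7.991 and 15.35 CPM in the efferent ductules and 7.043, 7.284, 7.038 and 8.586 CPM in the testis, which were not separated (adjusted p = 0.131). All other regions were lower, the vas deferens being next at 1.26 ± 0.470 (adjusted p = 1.98e-07 against the testis). The testis was the lowest region for every member except Timp2 and Timp4 at both ages.

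**Figure D1:**
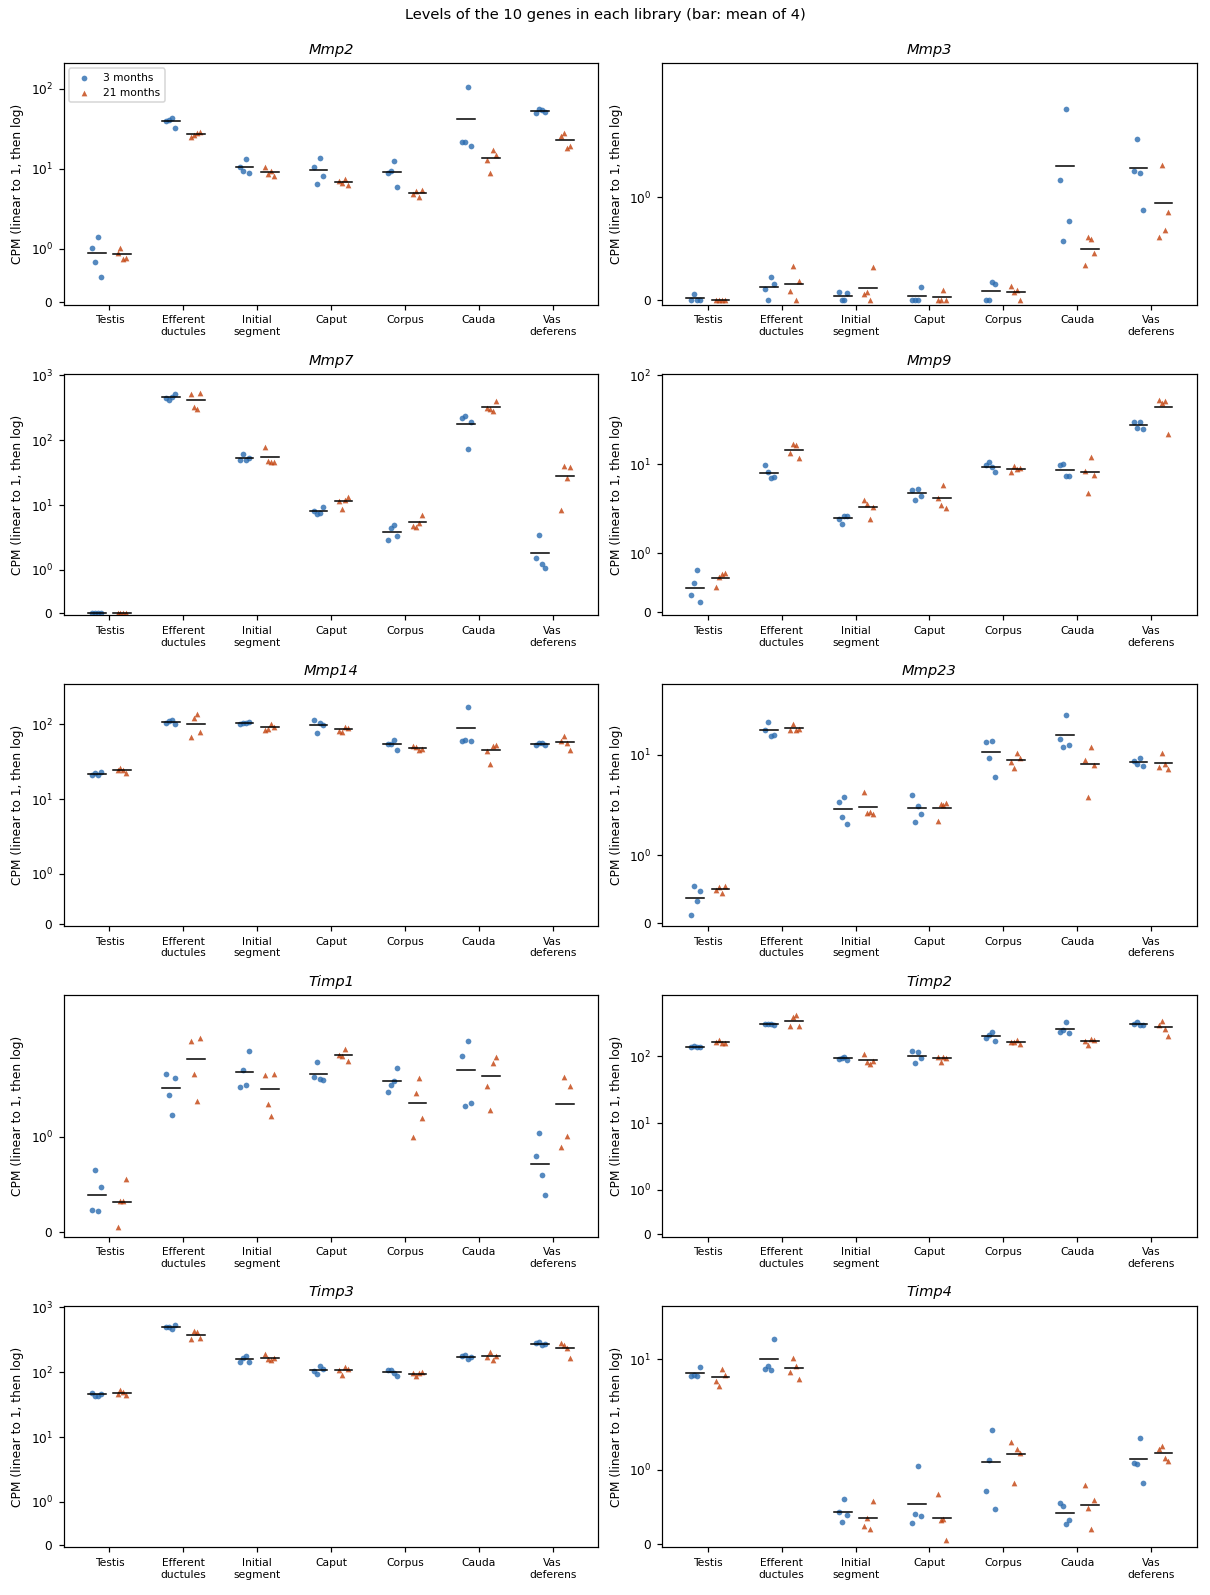
Level of each of the 10 genes in CPM (y axis, linear to 1 and logarithmic above) in the 7 regions (x axis), with 1 point for each library, circles for 3 months, triangles for 21 months, and a bar for the mean of 4. Mmp7 spans from no count in the testis to 461 CPM in the efferent ductules, whereas Timp2 spans 93.8 to 305 CPM at 3 months, and 1 circle of the cauda stands far above the other 3 for Mmp2 and Mmp14.

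Over the 10 members and 21 pairs of regions, 156 of 210 differences passed the test at 3 months, where 49.6% of all gene and pair combinations did, and 164 of 210 passed at 21 months, where 48.5% did. Mmp7 (21 of 21), Timp3 (19) and Mmp9 (18) differed in the most pairs at 3 months, and Mmp3 and Timp1 (10 each) in the fewest.

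Scaled to exon length, the 10 genes made up different mixtures in each region. In the testis at 3 months Timp2 gave 75.5% of the summed CPM per kb of the 10 genes and the 4 inhibitors together between 90.7% and 91.4% in the 4 libraries. In the efferent ductules Mmp7 alone gave 70.3% and the inhibitors between 22.0% and 24.7%. Mmp7 was also the leading gene per kb in the initial segment (41.6%) and the cauda (55.1%), whereas Timp2 led in the caput (36.2%), corpus (57.4%) and vas deferens (51.5%). Mmp14 reached its largest share, 22.8%, in the caput. At 21 months the inhibitors made up between 15.5% and 19.7% in the cauda, against 26.3% to 43.5% at 3 months, and between 55.5% and 71.8% in the vas deferens, against 73.1% to 75.1%. The upper limit in the young cauda was replicate 3, and the other young libraries lay between 26.3% and 28.4%. In both regions the ranges at the 2 ages did not overlap, and in both Mmp7 held a larger mean share at 21 months (77.7% for cauda and 16.6% for vas deferens, against 55.1% and 1.10%), the young cauda mean being 64.6% without replicate 3. In the other 5 regions the ranges of the inhibitors' share overlapped between the ages. In the old efferent ductules replicates 2 and 3 gave 31.4% and 33.3% and replicates 1 and 4 gave 19.1% and 18.8%, so that without replicates 2 and 3 the ranges did not overlap there. These shares are of transcript abundance and say nothing of enzyme activity.

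**Figure D2:**
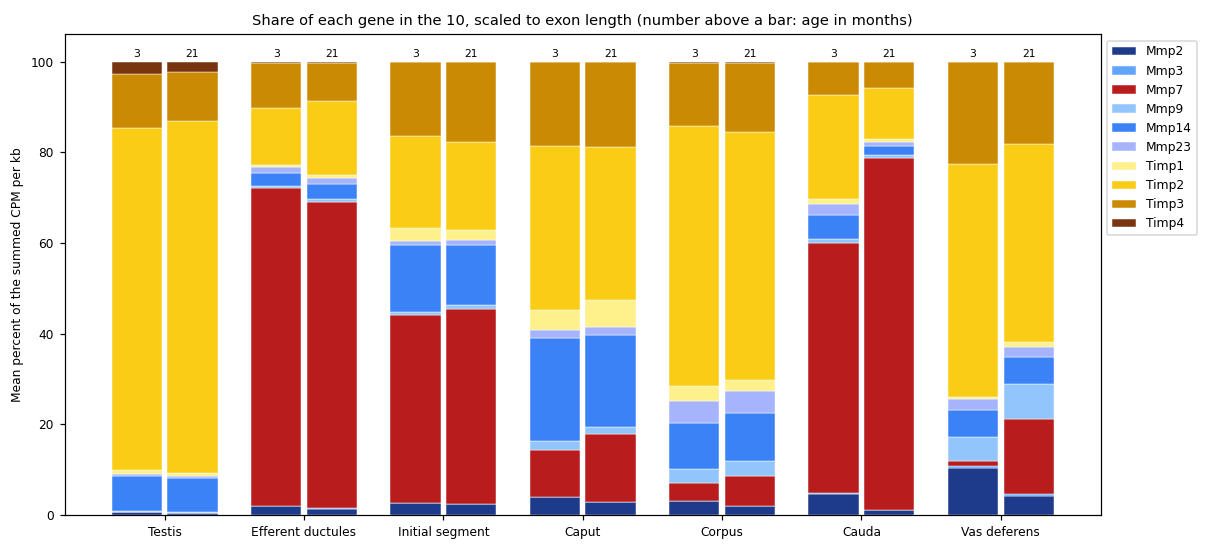
Mean share of each gene in the summed CPM per kb of exon of the 10 genes (y axis, percent), for each region (x axis) at 3 months (left bar) and 21 months (right bar), blue and red for metalloproteinases and yellow to brown for inhibitors. Mmp7 fills most of the bar in the efferent ductules and cauda, Timp2 in the testis, and the red part of the vas deferens bar is 1.10% at 3 months and 16.6% at 21 months.

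The genes most like each member over the 56 libraries were named by the Pearson correlation of log2(CPM + 1), a description in which the points share region and library. Mmp2 was most like Bgn, which encodes the matrix proteoglycan biglycan (r = 0.972), then Itpripl2 (0.957) and Emp1 (0.951). Mmp9 was most like Cavin2, a caveolar coat gene (0.953), Lrrc3 (0.946) and 4931414P19Rik (0.943). Mmp7 was most like Magix (0.938), Igfbp2, an insulin-like growth factor binding protein (0.915), and Ly6c1 (0.914). Among the genes most like Mmp14 were Uap1l1 (0.941) and Hs6st1 (0.933), and Mmp23 was most like Arhgef19 (0.955), Slit3 (0.953) and Aebp1 (0.953). Mmp3 was most like the unannotated transcripts Gm45512 and Gm37777 (0.876 each) and Fst, which encodes the activin antagonist follistatin (0.863). Timp3 was most like Slc6a8, the creatine transporter (0.955), Aqp1, a water channel of efferent ductule epithelium (0.952), and Phldb2 (0.950). Timp4 was most like Tshr, the thyrotropin receptor (0.957), Slco3a1 (0.944) and Fam222a (0.943), and Timp2 like Sned1 (0.917), Arrb1 (0.915) and Mcu (0.915). Timp1 had the loosest matches, Rnaset2a (0.845), Ftl1 (0.844) and Rnaset2b (0.842), of which the Rnaset2 genes are near-identical copies. Within the family the closest pair was Mmp2 and Timp3 (r = 0.894), and Timp4 correlated at or below 0.054 with every member except Timp2 (0.479).

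The comparison of 21 with 3 months asked which members changed with age in each region. Of 70 combinations of member and region, 65 had at least 10 counts and were tested. Fold changes come from a fit of the 8 libraries of a region, and CPM were scaled over all 56 libraries, so that ratios of mean CPM can differ slightly from them. The test called 6 of the 65, 3 higher and 3 lower at 21 months. Mmp7 rose in the vas deferens, Mmp9 in the efferent ductules and Timp2 in the testis, and Mmp2 fell in the efferent ductules, corpus and vas deferens. In bulk tissue, a change in the number of cells of a type and a change in RNA per cell cannot be told apart. By region, 1 of 8 members was called in the testis (0.563% of all genes tested there), 2 of 10 in the efferent ductules (6.99%), 1 of 9 in the corpus (2.97%) and 2 of 10 in the vas deferens (19.9%). The count in the vas deferens lies near the share of all genes. Taken by direction, 0.353%, 4%, 3.35%, 3.09%, 1.5%, 0.07% and 11.4% of all genes were higher from testis to vas deferens in the order of the duct. The 2 ages did not overlap for 1 of 8 members in the testis (6.31% of all genes), 3 of 10 in the efferent ductules (17.8%), none of 9 in the initial segment (12.4%), 1 of 9 in the caput (16.9%), 1 of 9 in the corpus (10.2%), 4 of 10 in the cauda (8.46%) and 2 of 10 in the vas deferens (25%). At the thresholds of the study, an unadjusted p under 0.05 and at least 1.5-fold, 5 combinations were higher and 7 lower, where 2.71%, 12.8%, 11.5%, 13.2%, 6.84%, 8.3% and 17.8% of all genes were called from testis to vas deferens. None was called by edgeR in the initial segment (6.36%), caput (8.14%) or cauda (0.128%), where 2, 3 and 6 members had an unadjusted p under 0.05 and DESeq2 called 0, 1 and 0. The median log2 fold change of the members was between -0.40 in the cauda and 0.12 in the testis, and that of all genes tested between -0.04 and 0.02.

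**Figure D3:**
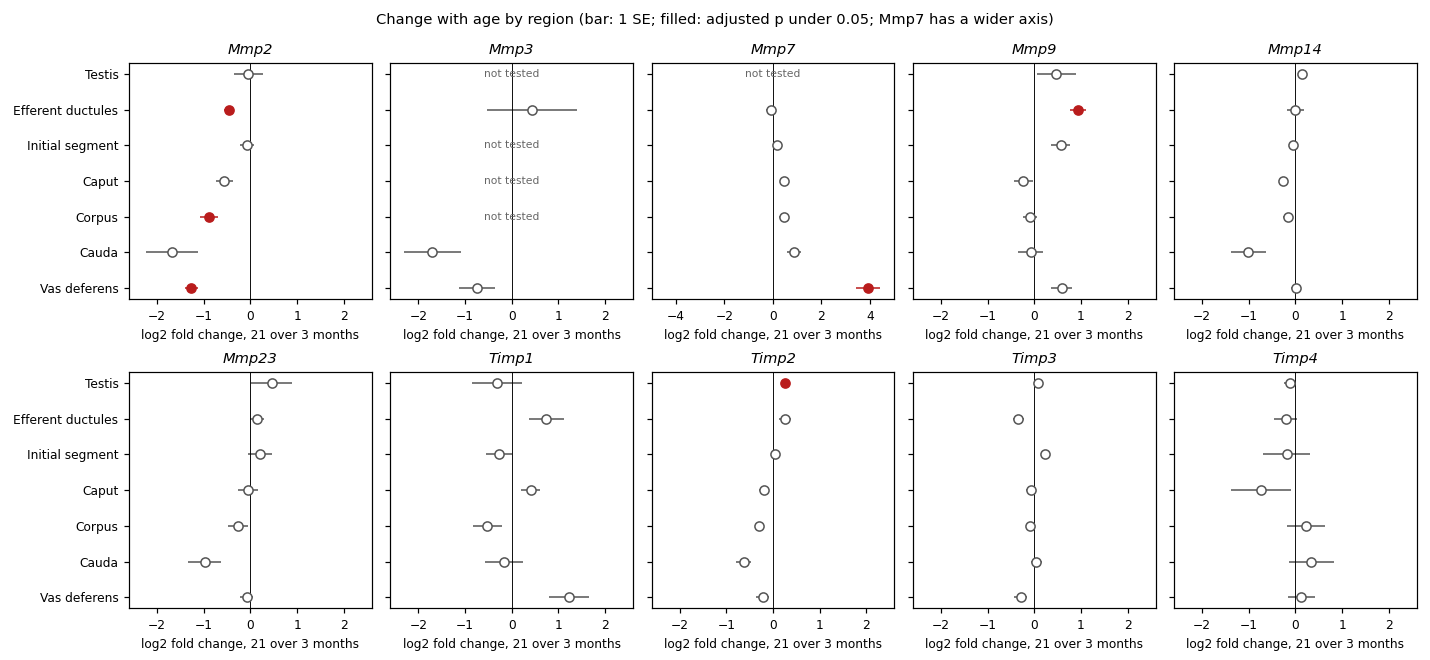
Log2 fold change of each gene at 21 over 3 months (x axis) in each region (y axis), from edgeR, with bars of 1 SE, filled red points where the adjusted p is under 0.05, and a wider axis for Mmp7. The 6 filled points are Mmp2 in the efferent ductules, corpus and vas deferens, Mmp7 in the vas deferens, Mmp9 in the efferent ductules and Timp2 in the testis.

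Mmp7 in the vas deferens gave 1.534, 3.439, 1.237 and 1.071 CPM at 3 months and 8.318, 39.29, 25.88 and 38.8 CPM at 21 months. All old libraries lay above all young ones, and replicate 1 was the lowest of the old. The fold change was 15.1 (log2 3.92, SE 0.499, adjusted p = 0.000925, edgeR), and the call held when each library was left out in turn (log2 3.71 to 4.38, adjusted p at most 0.00671). The rise differed from the age effect of Mmp7 in each of the 5 other regions with counts, by 3.13 to 4.14 on the log2 scale (largest adjusted p = 1.53e-05). In the cauda, caput, corpus and initial segment the log2 fold changes of Mmp7 were 0.87, 0.44, 0.47 and 0.19 (adjusted p = 0.305, 0.0904, 0.253 and 0.522). Beside the rise, the 6 epididymal epithelium markers summed to between 7088 and 7729 CPM in the vas deferens at 3 months and between 4514 and 8400 at 21 months, with 1 of 6 higher, and 3 of 7 general epithelium markers were higher and 1 lower. All 6 T cell markers were higher, their sum being 4.13 to 6.13 CPM at 3 months and 14.7 to 43.8 at 21 months. The 2 vas deferens epithelium markers summed to 19950 to 22580 CPM at 3 months and 10320 to 17070 at 21 months, with 1 lower. Smooth muscle markers summed to 11510 to 12140 CPM and 12530 to 20180, and 4 of 6 were higher. Of all genes, 11.4% were higher there and 8.47% lower. The part of these cells in the Mmp7 level was not tested.

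Mmp2 fell in 3 regions. In the vas deferens it gave 50.24, 56.03, 54.17 and 51.55 CPM at 3 months and 26.07, 28, 18.17 and 19.23 CPM at 21 months, a log2 fold change of -1.27 (SE 0.144, adjusted p = 0.000569, edgeR). The groups did not overlap, and the call held in all 8 fits that left out 1 library (log2 -1.37 to -1.15). In the corpus the libraries gave 8.974, 9.501, 12.5 and 5.953 CPM at 3 months and 4.777, 5.347, 4.478 and 5.4 CPM at 21 months, again without overlap (log2 -0.89, SE 0.191, adjusted p = 0.0161). This call was lost without replicate 3 at 3 months (log2 -0.74, adjusted p = 0.0809), or without replicate 1 or 4 at 21 months (-0.86 and -0.89, adjusted p = 0.0502 and 0.0521). In the efferent ductules the libraries gave 39.85, 41.36, 43.3 and 32.58 CPM against 25.09, 26.19, 28.05 and 28.58 CPM (log2 -0.46, SE 0.103, adjusted p = 0.0276). The groups did not overlap, but the call was lost without any 1 of the young libraries or without replicate 2 of the old (log2 -0.52 to -0.41, adjusted p between 0.0521 and 0.0913). In the caput the log2 fold change was -0.56 (adjusted p = 0.0777) and DESeq2 called it (adjusted p = 0.0462). In the testis and initial segment it was -0.04 and -0.07 (adjusted p = 0.983 and 0.864). Of the fibroblast markers, 8 of 8 fell in the corpus (sum 705.4 to 908.4 CPM at 3 months and 405.8 to 522.5 at 21 months), where 1.47% of all genes were lower. In the vas deferens 5 of 8 fell (937.8 to 1109 and 625.1 to 982.7), where 8.47% of all genes did, and in the efferent ductules 1 of 8 (928.1 to 1094 and 592.3 to 979.2), where 2.98% did, and in these regions the sums overlapped between the ages. In the initial segment 4 of 8 fell (675.9 to 802.6 and 587.9 to 687.2), where 3.01% of all genes did. In the caput 3 of 8 fell (375.7 to 550.2 and 333.7 to 377.3), where 5.05% did. The sums overlapped between the ages in both, and no fibroblast marker was called in the testis or cauda. The part of fibroblasts in the Mmp2 level was not tested.

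Mmp9 rose in the efferent ductules, from 9.816, 8.123, 7.061 and 7.194 CPM at 3 months to 13.33, 16.96, 16.63 and 11.65 CPM at 21 months. The groups did not overlap, and the fold change was 1.91 (log2 0.93, SE 0.171, adjusted p = 0.015, edgeR). The call was lost without replicate 4 at 3 months (log2 0.90, adjusted p = 0.0636). Of the macrophage markers, 4 of 6 were higher there. Their sums were 233.1 to 248.1 CPM at 3 months and 300.6 to 406.1 at 21 months. Of the T cell markers, 4 of 6 were higher (2.74 to 3.56 against 8.83 to 10.9), where 4% of all genes were. The neutrophil sum did not exceed 0.798 CPM in any library of the region. In the initial segment, caput and vas deferens, 2 of 6 macrophage markers each were higher. Mmp9 was at log2 0.56, -0.23 and 0.59 in these (adjusted p = 0.144, 0.517 and 0.0876, edgeR). In the vas deferens, Mmp9 gave 30.25, 25.95, 30.13 and 25.02 CPM at 3 months and 52.31, 49.48, 51.3 and 21.68 CPM at 21 months. Replicate 4 of the old group lay below all young libraries while the other 3 lay above them. The log2 fold change was 0.59 (SE 0.223, adjusted p = 0.0876) with that library and 0.80 (adjusted p = 0.000183) without it. Neutrophil markers in the vas deferens summed to 2.01 to 5.57 CPM at 3 months and 4.04 to 18.4 at 21 months, with 1 of 6 genes tested and higher and Ly6g at 0 in all 8 libraries. The sum of 18.4 CPM was that of old replicate 4, where Mmp9 was lowest. The other old libraries held 4.04 to 9.28 CPM. The part of these cell types in the Mmp9 level was not tested. Relative to the efferent ductules, the age effect of Mmp9 was -1.06 on the log2 scale in the caput and -0.95 in the cauda (adjusted p = 0.0257 and 0.0375).

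**Figure D4:**
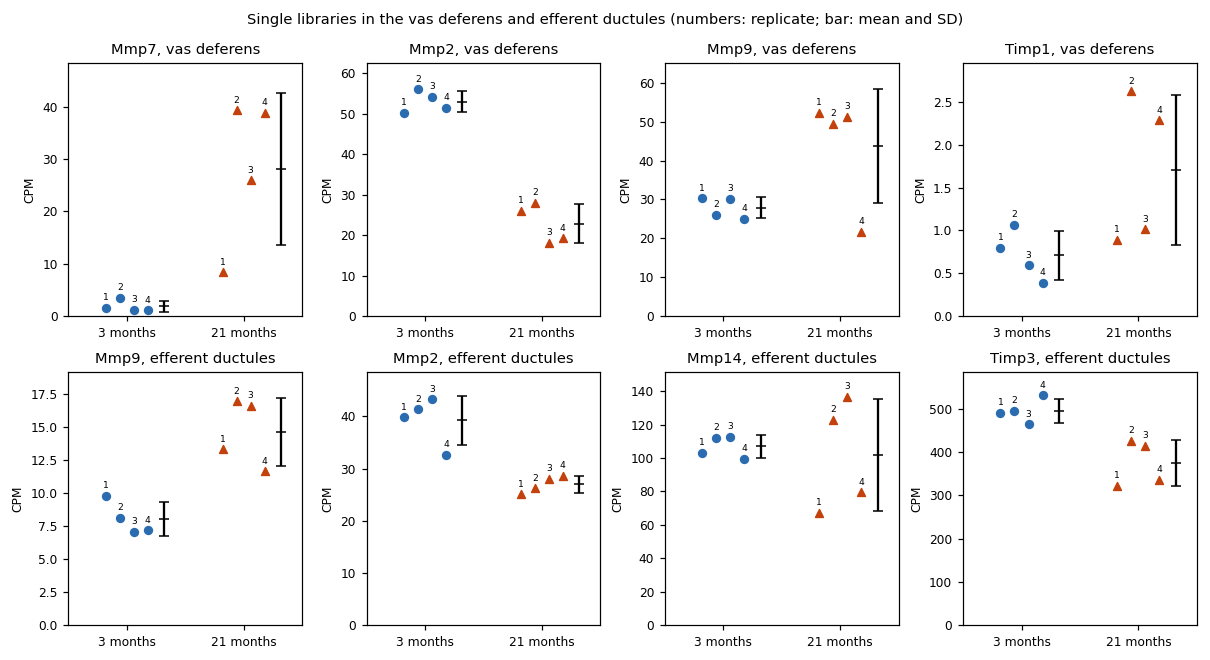
CPM of single libraries (y axis) at 3 and 21 months (x axis) for Mmp7, Mmp2, Mmp9 and Timp1 in the vas deferens and Mmp9, Mmp2, Mmp14 and Timp3 in the efferent ductules, numbered by replicate, with the mean and SD beside them. Old replicate 4 of the vas deferens lies at 21.7 CPM for Mmp9 while the other 3 lie between 49.5 and 52.3, and old replicates 2 and 3 of the efferent ductules lie above replicates 1 and 4 for Mmp14 and Timp3.

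Among the inhibitors there was 1 call. Timp2 in the testis gave 136.6, 142.3, 135.8 and 138.3 CPM at 3 months and 161.8, 178.7, 157.5 and 160.0 CPM at 21 months. The groups did not overlap, but the rise was 1.19-fold (log2 0.25, SE 0.056, adjusted p = 0.0378, edgeR), and the call was lost in 7 of the 8 fits that left out 1 library, all except that without young replicate 4 (adjusted p between 0.0626 and 0.179 in the 7). Timp1 in the vas deferens gave 0.7932, 1.063, 0.5936 and 0.3894 CPM at 3 months and 0.8932, 2.623, 1.013 and 2.283 CPM at 21 months, with overlap (log2 1.22, SE 0.432, adjusted p = 0.0695). It passed without replicate 1 or replicate 3 of the old group (log2 1.43 each, adjusted p = 0.0437 and 0.0473). Timp1 in the caput gave 2.605, 3.346, 2.52 and 2.516 CPM against 3.73, 3.656, 4.135 and 3.366 CPM, without overlap, and did not pass (log2 0.41, adjusted p = 0.234). Timp3 passed in no region. Its log2 fold changes lay between -0.34 in the efferent ductules (adjusted p = 0.118) and 0.23 in the initial segment (adjusted p = 0.13, and 0.0408 without replicate 3 at 3 months, log2 0.31). Timp4 had adjusted p-values of 0.515 or more in every region.

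Replicates 2 and 3 of the old efferent ductules, those with epididymal markers, differed from replicates 1 and 4 in several members. Mmp14 gave 67.38, 123.0, 136.7 and 79.38 CPM in the 4 old libraries against 103.3, 112.2, 112.8 and 99.35 in the young ones, Mmp7 gave 508.5, 320.1, 297.5 and 526.2 against 438.5, 418.1, 465.9 and 521.5, and Timp1 gave 4.65, 2.763, 1.78 and 4.916 against 2.759, 1.952, 1.423 and 2.584. Old replicates 1 and 4 lay below all young libraries for Mmp14 and above all of them for Timp1. Replicates 1 and 4 had the lowest total counts of the 56 libraries (11442133 and 11125279) and the highest Gm42418 shares of the region (22.2% and 18.5%), and this share was 1.27% to 3.29% in the young efferent ductules and 4.93% to 22.2% in the old. Its part in the efferent ductule results was not tested beyond a fit without that gene, in which Mmp9 and Mmp2 were again called (adjusted p = 0.0151 and 0.0277). With the 4 old libraries, Mmp14, Mmp7 and Timp1 did not pass (log2 -0.01, -0.07 and 0.74, adjusted p = 0.988, 0.864 and 0.241). Without replicates 2 and 3, which leaves 2 old libraries, 6 of 10 members were called, where 27.1% of all genes were. Mmp14 was lower (log2 -0.40, adjusted p = 0.00553), as was Timp3 (-0.45, adjusted p = 0.00658), and Timp1 (1.26, adjusted p = 0.00987) and Mmp7 (0.31, adjusted p = 0.0388) were higher. Mmp9 and Mmp2 were called with and without them (log2 0.77 and -0.40 without, adjusted p = 0.00876 and 0.0175).

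The young cauda library with high macrophage markers stood apart in most members. Against the median of the other 3 young libraries it held 4.84 times as much Mmp2, 4.85 times Mmp3, 2.85 times Mmp14, 2.71 times Timp1 and 2.0 times Mmp23, and 0.334 times Mmp7. In the same library the macrophage sum was 4.81 times, the T cell sum 3.25 times and the fibroblast sum 1.42 times that median, while epithelium markers were at 0.645 times. Mmp2 in the cauda gave 12.84, 8.868, 17.22 and 15.02 CPM at 21 months, below all 4 young libraries (log2 -1.68, adjusted p = 0.318), and the log2 fold change was -0.60 without that library (adjusted p = 0.387). For Mmp14 the log2 fold change was -1.01 with it and -0.40 without it (adjusted p = 0.39 and 0.601). Mmp7 gave 313.3, 301.1, 277.7 and 395.9 CPM at 21 months, all above the young libraries (log2 0.87, adjusted p = 0.305, and 0.62 without that library, adjusted p = 0.115). Timp2 gave 167.9, 148.1, 179.9 and 176.6 CPM against 234.9, 243.9, 329.4 and 226.6, again without overlap (log2 -0.63, adjusted p = 0.187, and -0.45 without that library, adjusted p = 0.177).

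**Figure D5:**
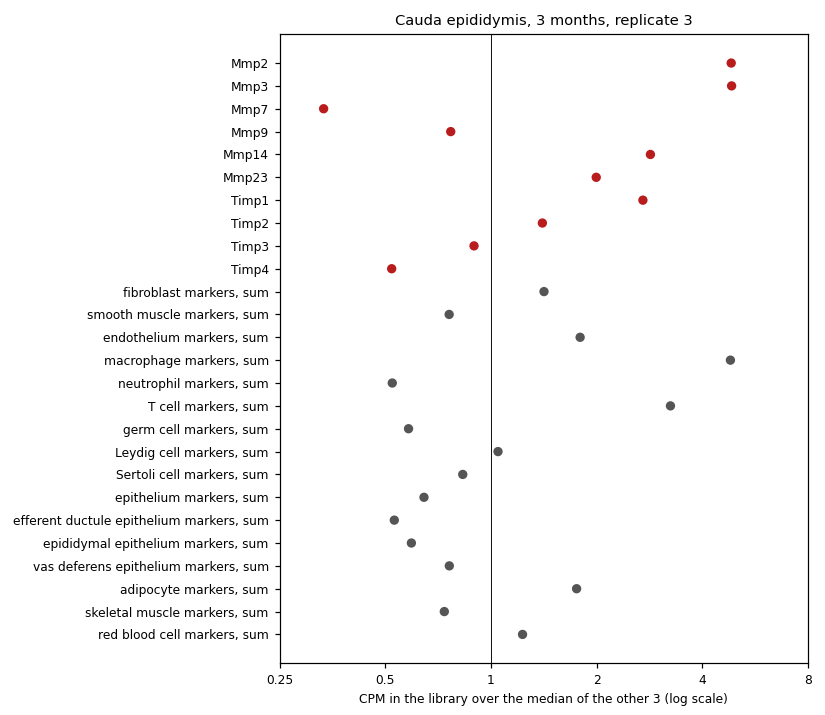
Level in replicate 3 of the young cauda divided by the median of the other 3 young cauda libraries (x axis, log scale), for the 10 genes (red) and for the summed markers of each cell type (grey). Mmp2, Mmp3 and the macrophage sum lie near 4.8 and Mmp7 at 0.334.

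Whether the age effect of a member differed between regions was tested in 1 fit of the 56 libraries. It did for 5 of 10 members, namely Mmp7 (adjusted p = 2.64e-07), Timp2 (0.00522), Mmp9 (0.0289), Mmp14 (0.0383) and Mmp2 (0.0489), where 20.2% of all genes passed. Timp1 (0.0593), Mmp23 (0.0889), Timp3 (0.137), Mmp3 (0.382) and Timp4 (0.795) did not pass. The result for Mmp14 rested on young cauda replicate 3 (adjusted p = 0.318 without it), and that for Mmp2 did not pass without old vas deferens replicate 4 (0.0647). Mmp2 also failed without replicate number 1 (0.118), 2 (0.151) or 4 (0.103), and Mmp14 without number 1 (0.0818), 2 (0.197) or 3 (0.352). Mmp7, Timp2 and Mmp9 passed without either library, but with scaling by library size only Timp2 (0.0987) and Mmp9 (0.193) did not. Timp2 also failed without replicate number 3 (0.122), and Mmp9 without number 1 (0.163) or 2 (0.283). For Timp2 the age effect in the cauda was -0.87 on the log2 scale relative to the testis and -0.81 relative to the efferent ductules (adjusted p = 0.012 and 0.00394). These sizes depended on libraries that stood apart, since in the fits of single regions the log2 fold change of Timp2 went from -0.63 to -0.45 in the cauda and from 0.26 to 0.07 in the efferent ductules without them, and the difference was not tested without them.

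Among 17 other metalloproteinase genes, 4 combinations of gene and region were higher and 3 lower of 81 tested, where 3.31% of all combinations of gene and region were higher and 2.96% lower. The pathway and marker lists were chosen with earlier results of these data known, so their counts describe these data and do not test them. Mmp12, the macrophage elastase, rose in the efferent ductules (1.44 ± 1.56 to 13.67 ± 12.8 CPM, log2 3.40, adjusted p = 0.0275), initial segment (0.350 ± 0.103 to 0.975 ± 0.370, log2 1.6, adjusted p = 0.0342) and corpus (0.0870 ± 0.0906 to 3.19 ± 3.65, log2 5.06, adjusted p = 0.00698). In the young cauda its mean of 65.71 CPM had an SD of 130.5, and its log2 fold change was -5.18 (adjusted p = 0.378) with replicate 3 and 2.15 (adjusted p = 0.0316) without it. Mmp24, a membrane-type enzyme best known from neurons, rose in the initial segment (0.353 to 1.33 CPM, adjusted p = 0.0123) and fell in the caput (1.13 to 0.0279 CPM, adjusted p = 0.00689). Without old replicates 2 and 3 it was also lower in the efferent ductules (log2 -1.58, adjusted p = 0.0113, against -0.90 and 0.149 with them). In the vas deferens Mmp16, a membrane-type enzyme, fell (log2 -0.70, adjusted p = 0.0232), as did the collagenase gene Mmp13, from 0.358 to 0.0279 CPM (adjusted p = 0.0173).

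Among 17 activators and other regulators, 5 of 110 combinations were higher and 5 lower, against the same shares of 3.31% and 2.96% of all combinations. Plau, the plasminogen activator urokinase, rose in the corpus (96.87 ± 8.26 to 177.1 ± 45.9 CPM, adjusted p = 0.00206) and fell in the vas deferens (369.9 ± 27.7 to 265.5 ± 66.4, adjusted p = 0.0341). Its inhibitor Serpine2 rose in the caput (log2 0.61, adjusted p = 0.0493, and 0.0698 without young replicate 2) and vas deferens (1.24, adjusted p = 0.00375). Reck, a membrane-anchored inhibitor of metalloproteinases, fell in the corpus (log2 -0.51, adjusted p = 0.0351) and vas deferens (-0.49, adjusted p = 0.0375), and the proteoglycan gene Spock1 rose in the initial segment (35.11 to 109.7 CPM, log2 1.79, adjusted p = 1.38e-05). Without the libraries that stood apart, Reck was also lower in the efferent ductules (-0.34, adjusted p = 0.0316) and caput (-0.47, adjusted p = 0.0408), and Spock1 was higher in the vas deferens (0.71, adjusted p = 0.00649). Other calls, named after their values were seen, included Plat, lower in the efferent ductules, and Bsg, lower in the vas deferens (adjusted p = 0.0476, and 0.058 without old replicate 4). Bsg was higher in the efferent ductules without old replicates 2 and 3 (log2 0.90, adjusted p = 2.66e-05, against 0.58 and 0.0698 with them). Of the 8 ADAM and ADAMTS genes whose products TIMP3 inhibits, 13 of 56 combinations were lower and 1 higher, against 2.96% and 3.31% of all combinations. Adamts2, which removes the propeptide of fibrillar procollagens, fell in the testis, initial segment, caput, corpus and vas deferens (log2 -0.57 to -1.37 in these 5, adjusted p at most 0.0172). Adam12 fell in the efferent ductules and vas deferens (log2 -0.86 and -1.03), Adamts9 in the initial segment and caput (-0.41 and -0.45) and Adam10 in the efferent ductules (-0.39). The remaining calls, named after their values were seen, were Adamts1, higher in the vas deferens, and Adam17 in the efferent ductules, Adamts4 in the caput and Adamts5 in the vas deferens, all lower. The Adamts4 call was lost without young replicate 2 (adjusted p = 0.0347 with it and 0.0517 without), and that of Adamts5 without old replicate 4 (0.0489 and 0.068). Without old replicates 2 and 3, 6 of 8 genes were lower in the efferent ductules, where 13.7% of all genes then were, Adamts2 (log2 -0.56, adjusted p = 0.00135), Adamts5 (-0.39, adjusted p = 0.0272) and Adamts9 (-0.29, adjusted p = 0.0288) among them.

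Matrix substrates, a list also chosen with earlier results of these data known, were lower in most regions. Of 84 combinations of 12 matrix genes and 7 regions, 56 were lower at 21 months and 1 was higher, the fibronectin gene Fn1 in the initial segment, named after its value was seen, and the list's median log2 fold change was between -0.41 in the testis and -1.45 in the cauda. Lower calls numbered 6 of 12 in the testis, 7 in the efferent ductules, 11 each in the initial segment, caput and corpus, 1 for the cauda and 9 for the vas deferens, where 0.21%, 2.98%, 3.01%, 5.05%, 1.47%, 0.0583% and 8.47% of all genes were lower. Without the libraries that stood apart, the counts were 11 in the efferent ductules (13.7% of all genes), 10 in the caput (3.63%), 5 for the cauda (0.139%) and 9 for the vas deferens (9.39%). The fibrillar collagen genes Col1a1, Col1a2 and Col3a1 each fell in 6 of 7 regions, for example Col1a1 in the vas deferens from 423.4 ± 132.5 to 139.5 ± 25.1 CPM (log2 -1.67, adjusted p = 0.000976). In the cauda their log2 fold changes were -3.66, -2.68 and -3.06 (adjusted p = 0.0988, 0.0915 and 0.0988), and without young replicate 3 all passed (-2.31, -1.68 and -1.79, adjusted p = 0.0358, 0.00784 and 0.00296). Fbn1, which encodes the microfibril protein fibrillin 1, fell in every region except the testis, and Eln, which encodes elastin, fell in 5 (log2 -2.12 in the vas deferens, adjusted p = 0.00155). In the other regions, the efferent ductules and cauda, Eln was at log2 -0.93 and -2.46 (adjusted p = 0.0543 and 0.0808), and it passed in both without the libraries that stood apart (-1.56 and -1.81, adjusted p = 1.35e-05 and 0.0365). Col5a1, Lamc1, a laminin chain gene, and Nid1, which encodes the basement membrane linker nidogen 1, fell in 5 regions each, and Col4a1, a basement membrane collagen gene, in 4. Without the libraries that stood apart, Col4a1 and Fn1 also fell in the efferent ductules (log2 -0.66 and -0.91, adjusted p = 0.000222 and 0.0234), and Lamc1 no longer passed in the caput (adjusted p = 0.049 with and 0.067 without young replicate 2). These genes share no member with the fibroblast marker list whose sums are given with Mmp2.

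Among 12 genes for AP-1 subunits and inducing cytokines, 10 of 11 tested in the vas deferens were higher at 21 months and none lower, against 11.4% of all genes higher, with a median log2 fold change of 1.52. The count was again 10 of 11 without old replicate 4, against 12.1% of all genes higher. Over the 7 regions 13 of 73 combinations were higher and 4 lower, against 3.31% and 2.96% of all combinations. This list too was chosen with earlier results of these data known. Fos, an AP-1 subunit, rose there from 5.71 ± 4.99 to 45.28 ± 31.4 CPM (log2 2.91, adjusted p = 0.00791) and in the corpus from 4.77 ± 0.926 to 14.26 ± 4.02 (log2 1.58, adjusted p = 0.000675). Jund rose in the efferent ductules (98.86 ± 9.58 to 188.1 ± 29.0 CPM, log2 1.0, adjusted p = 0.00481) and vas deferens (log2 0.58, adjusted p = 0.0271). Tgfb1 rose in the vas deferens (log2 0.78, adjusted p = 0.00243) and fell in the initial segment and caput (-0.55 in each, adjusted p = 0.0105 and 0.0256), and Tgfb2 fell in the caput and corpus (-0.76 and -0.62). Of the members whose promoters above hold TGANTCA, Mmp7 rose in the vas deferens and Mmp3 did not pass (1.542 ± 0.620 to 0.940 ± 0.461 CPM, log2 -0.74, adjusted p = 0.2). A link between these genes and either member was not tested.

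5 members share their locus with other genes. Of these, Timp1, Timp3 and Timp4 lie inside Syn1, Syn3 and Syn2 on the opposite strand, with 1733 exon bases shared between Timp3 and Syn3 and 90 between Timp4 and Syn2. Syn2 reached 394.0 CPM on average in the old cauda, where Timp4 was at 0.519, and 4.03 in the young efferent ductules, where Timp4 was highest. Group means did not exceed 25.92 CPM for Syn3 and 0.731 for Syn1. Cep295nl lies in Timp2 on the same strand with no shared exon base and was highest in the old testis (mean 347.4 CPM). The antisense gene AV064505 shares 123 exon bases with Mmp7, and its group means did not exceed 1.63 CPM. The kit marked strand, and the strand setting of the counting was not given in the sources used here.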

How the data were processed

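Total RNA of 56 libraries was prepared with a kit that marks strand. RNA was extracted with TRIzol per the labels, whereas the study's methods name a column kit. The authors trimmed reads with cutadapt, aligned them to GRCm38 with HISAT2 and counted them per gene with HTSeq, and the values they deposited are raw counts per Ensembl gene. Tool versions were not given in the sources used here.

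Libraries were grouped by region and age from their titles. Genes with at least 10 counts in total were tested by quasi-likelihood in edgeR 4.0.16 (R 4.3.3) after TMM scaling. Age was fitted within each region (4 against 4 libraries), pairs of regions within each age, and the interaction of region and age over the 56 libraries. A call is a Benjamini-Hochberg adjusted p under 0.05 over all genes of that fit. SE is the absolute log2 fold change divided by the square root of F. CPM are TMM-scaled over 56 libraries, and comparisons between genes use CPM per kb of exon. Limits for a count of 0 cover counting error only. Tables were made with Python 3.11.15, pandas 2.3.3 and numpy 2.4.6, and the fits were tested on simulated data.

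The members, 5 pathway lists and 16 marker lists were chosen with earlier results of these data known. Named were all members, from each pathway list up to 4 genes called for age in the most regions and any called in 1 direction in at least 4, the 3 genes most like each member among those with a mean of at least 1 CPM, and genes overlapping a member, except that 2 genes under this rule or in a list are not reported here. Promoters are those of RefSeq for 8 of 10 members. Libraries were fitted as separate samples, since the labels do not tie replicate numbers to animals. In 0 of 49 comparisons of groups did all 4 same-numbered pairs correlate above 0.1 (range -0.3 to 0.235). This check cannot show that equal numbers were different animals, and it included comparisons between the ages, which share no animal. The main fits between regions took no account of a shared animal. Alternatives were DESeq2 1.42.0, other scalings and count filters, removal of Gm42418, a replicate block, 1 fit of 56 libraries, the study's thresholds (unadjusted p under 0.05 and 1.5-fold), and leaving out libraries.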

Additional observations from a re-analysis of the deposited data

Results flagged for a closer look

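In 126 groups of 4 libraries with enough counts, 12 held a library whose gap to the next, as a share of the group's range, exceeded Dixon's 95% critical value, where chance gives about 1 in 20 groups, or 6.3. Of these, 3 were young cauda replicate 3, at 105 CPM for Mmp2, 171 CPM for Mmp14 and 329 CPM for Timp2. In the old libraries, replicate 1 of the initial segment stood apart for Mmp7 (77.5 CPM) and Mmp23 (4.28 CPM), replicate 4 of the vas deferens for Mmp9 (21.7 CPM), and Mmp23 was at 20.2 CPM in efferent ductule replicate 2 and 2.2 CPM in caput replicate 1. In the young libraries, Timp1 was at 3.35 CPM in caput replicate 2, and Timp4 stood apart at 8.59 CPM in testis replicate 4, 15.4 CPM in efferent ductule replicate 4 and 1.1 CPM in caput replicate 3.

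The age effect differed between regions in edgeR's interaction test for Mmp2 (adjusted p = 0.0489), Mmp7 (2.64e-07), Mmp9 (0.0289), Mmp14 (0.0383) and Timp2 (0.00522).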

How the results depend on the processing

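The 3 higher calls at 21 months became 5 with DESeq2, 1 with library size only and 5 at the study's thresholds, and ranged from 1 to 2 when each replicate number was left out. The 3 lower calls became 6 in 1 fit of the 56 libraries and 7 at the study's thresholds, and ranged from 1 to 2 without single replicate numbers. In the 56-library fit Mmp2, Mmp14, Mmp23 and Timp2 were lower in the cauda. The count of members whose age effect differed between regions, 5, became 3 with library size only (Mmp7, Mmp2 and Timp3, so that Timp2, Mmp9 and Mmp14 were lost) and ranged from 2 to 4 without single replicate numbers, and Mmp7 passed in each of these fits. With library size only, the median over all genes shifted to a log2 value of -0.38 (efferent ductules), 0.19 (caput) and -0.17 (corpus). Differences between pairs of regions stayed within 1.5 times their count in every alternative, the lowest being 127 at 3 months and 134 at 21 months with a 2-fold minimum.

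In fits chosen after seeing the data, leaving out the libraries that stood apart gave 6 higher and 5 lower calls, and the 56-library fit without young cauda replicate 3 gave 5 lower, with Timp2 lower in the cauda (log2 -0.48, adjusted p = 0.047). Among member and region results that passed the test in either fit, the 1 change of sign was Mmp7 in the efferent ductules, at 0.31 without old replicates 2 and 3. Results that passed in neither fit also changed sign, such as Timp1 in the cauda (-0.16, and 0.21 without young replicate 3).

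With the replicate number as a block there were 3 higher and 2 lower calls, and Mmp2 in the efferent ductules was lost (log2 -0.46, adjusted p = 0.0923). The block gave 157 and 162 differences between pairs of regions and 5 interaction calls. The cause of these shifts was not tested. With 4 libraries a group and few counts of Mmp3, Timp1 and Timp4 in several regions, small changes of these genes may have been missed.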
